A study of Mus musculus with 7 samples.

Results

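The genes described here encode the pore-forming subunits of AMPA and NMDA receptors, the glutamate-gated ion channels of excitatory synapses. The set was named by gene symbol, with 4 AMPA receptor genes (Gria1 to Gria4) and 6 NMDA receptor genes (Grin1, Grin2a, Grin2b, Grin2c, Grin2d and Grin3a). All 10 were found among the 25467 genes of the deposited count table, and all 10 passed the filter on low counts. RNA was sequenced from the medial prefrontal cortex (mPFC) of 7 mice. Of these, 4 received rhTSP1 (thrombospondin-1 of human sequence, made as a recombinant protein; TSP1 in what follows), and 3 received phosphate-buffered saline (PBS). The labels call the tissue brain, and the sample titles (Mpfc) and the series title name the region. The sources used here do not give genotype, strain, sex, age, dose, route or time after treatment. Thrombospondin-1 is a matrix glycoprotein that astrocytes secrete and that is known as a synapse-promoting factor, and the comparison asks what it does to gene expression in this cortex.

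AMPA receptors are tetramers that open within milliseconds of glutamate binding and carry most of the fast excitatory current. Whether they contain the subunit encoded by Gria2 decides whether calcium can pass. NMDA receptors pair obligatory subunits from Grin1, which bind glycine or D-serine, with glutamate-binding subunits from the Grin2 genes, and they admit calcium once depolarization has removed a magnesium block. In forebrain, Grin2b dominates early in life and Grin2a increases with maturation, Grin2d is found in interneurons and Grin2c is best known from cerebellar granule cells and astrocytes. Grin3a encodes a glycine-binding subunit that lowers calcium flow and magnesium block.

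The tip of the pore loop is encoded by a short stretch that governs calcium flow, and it is shown here because the ratios below weigh subunits that differ around it. Each line gives 27 bases of the sense strand, 5′ to 3′, from the GENCODE M21 transcripts (GRCm38), with the codon of the pore site in capitals.
Gria1: gccttcatgCAGcaaggatgtgacatt
Gria2: gcctttatgCAGcaaggatgcgatatt
Gria3: gcttttatgCAGcaaggatgtgatatt
Gria4: gcctttatgCAAcaaggatgtgacatt
Grin1: gtcctgctcAACtctggcattggggaa
Grin2a: ctggtcttcAACaattctgtgcccgtc
Grin2c: ctggtcttcAACaactctgttcccatc
Grin2d: ctggtgttcAACaactccgtgccagtg
In the genome all 4 AMPA receptor genes carry a glutamine codon at this site, and the 4 NMDA receptor genes shown carry an asparagine codon. The Grin3a site was not searched. The Gria2 window lies on chromosome 3 from 80706896 to 80706922, on the minus strand in exon 11 of 16 of the transcript read. It differs from the windows of Gria1, Gria3 and Gria4 at 3, 2 and 3 of 27 bases. In brain the Gria2 codon is read as arginine after the RNA has been edited by the deaminase encoded by Adarb1, which closes the channel to calcium. Counts per gene carry no information on that editing, nor on the flip and flop splice forms of the AMPA receptor genes.

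Depth ranged from 15090336 to 20755167 counts per library, and 17211 genes were tested. All 10 markers of excitatory neurons were present, and their summed level was 5910 to 8260 CPM (counts per 1000000 counts of the library, scaled with TMM factors) with TSP1 and 7370 to 8660 CPM with PBS. TSP1 replicate 4 stood apart in 14 markers of striatal projection neurons, which summed to 750 CPM there, against 288 to 304 CPM in the other TSP1 libraries and 273 to 290 CPM with PBS. The myelin markers were also highest in that library (8790 CPM, against 3200 to 6090 CPM in the other 6). Without this library the log2 fold changes over PBS of Gria4, Grin2a and Grin2d, described below, were 0.17, 0.20 and -0.10 in place of 0.12, 0.14 and -0.17.

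In order of level, AMPA receptor transcripts were led by Gria1 and Gria2 and NMDA receptor transcripts by Grin1 and Grin2b. Levels of different genes were compared per kilobase of merged exon, which is an approximation because the transcript ends in use are not known. Gria1 averaged 74.5 ± 1.57 CPM per kb with TSP1 (SD, n = 4) and 66.7 ± 7.66 with PBS (SD, n = 3). Gria2 averaged 51.0 ± 2.91 CPM per kb with TSP1 and 45.1 ± 0.599 with PBS. Over the 7 libraries the order ran Gria1, Gria2, Grin1, Gria3, Grin2b, Grin2c, Gria4, Grin2a, Grin3a and Grin2d, with means of 71.1, 48.4, 43.9, 33.6, 25, 17.6, 16.3, 11.3, 4.18 and 3.57 CPM per kb.

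Most steps in that order held in every library. Each gene lay above the next one in all 7 libraries, with 3 exceptions. Gria2 lay above Grin1 in 6 libraries, Grin2c above Gria4 in 4 and Grin3a above Grin2d in 6, so these neighbours were not separated beyond the spread. With the length of the longest annotated transcript in place of all exons, Grin1 came first and Gria4 passed Grin2c. The order within each receptor type did not change under that length.

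AMPA receptor genes kept nearly the same proportions in both groups. As a share of the summed AMPA level per kb, Gria1 made up 42.0% ± 1.79 with TSP1 and 41.9% ± 3.23 with PBS. Gria2 made up 28.7% ± 0.747 with TSP1 and 28.4% ± 0.804 with PBS. Gria3 made up 19.7% ± 0.951 with TSP1 and 20% ± 1.30 with PBS, and Gria4 9.52% ± 0.870 with TSP1 and 9.79% ± 1.23 with PBS. Each of these 4 differences was smaller than the SD within either group.

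Among the NMDA receptor genes, Grin2b and Grin2d took different shares of the Grin2 total in the 2 groups, with no overlap. The Grin2b share of the summed Grin2 level was 44.9, 43.4, 45.1 and 46.7% in TSP1 replicates 1 to 4, against 41.1, 40.8 and 42.5% in PBS replicates 1 to 3. The Grin2d share was 6.32, 5.74, 5.23 and 5.55% with TSP1, against 7.03, 7.16 and 6.51% with PBS. The Grin2a share was 19.9% ± 0.619 with TSP1 and 19.3% ± 0.871 with PBS, and the Grin2c share was 29.4% ± 1.29 with TSP1 and 32.3% ± 1.24 with PBS, where TSP1 replicate 2 (31.3%) overlapped PBS replicate 3 (31.1%). These shares describe the libraries and were not tested, and shares of 1 total are not independent of each other. For scale, the CPM of the groups did not overlap at 10.1% of all genes tested. The shares were not recomputed with the correction for exon length described below, and Grin2b has the longest exon sequence of the subunit genes.

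**Figure D1:**
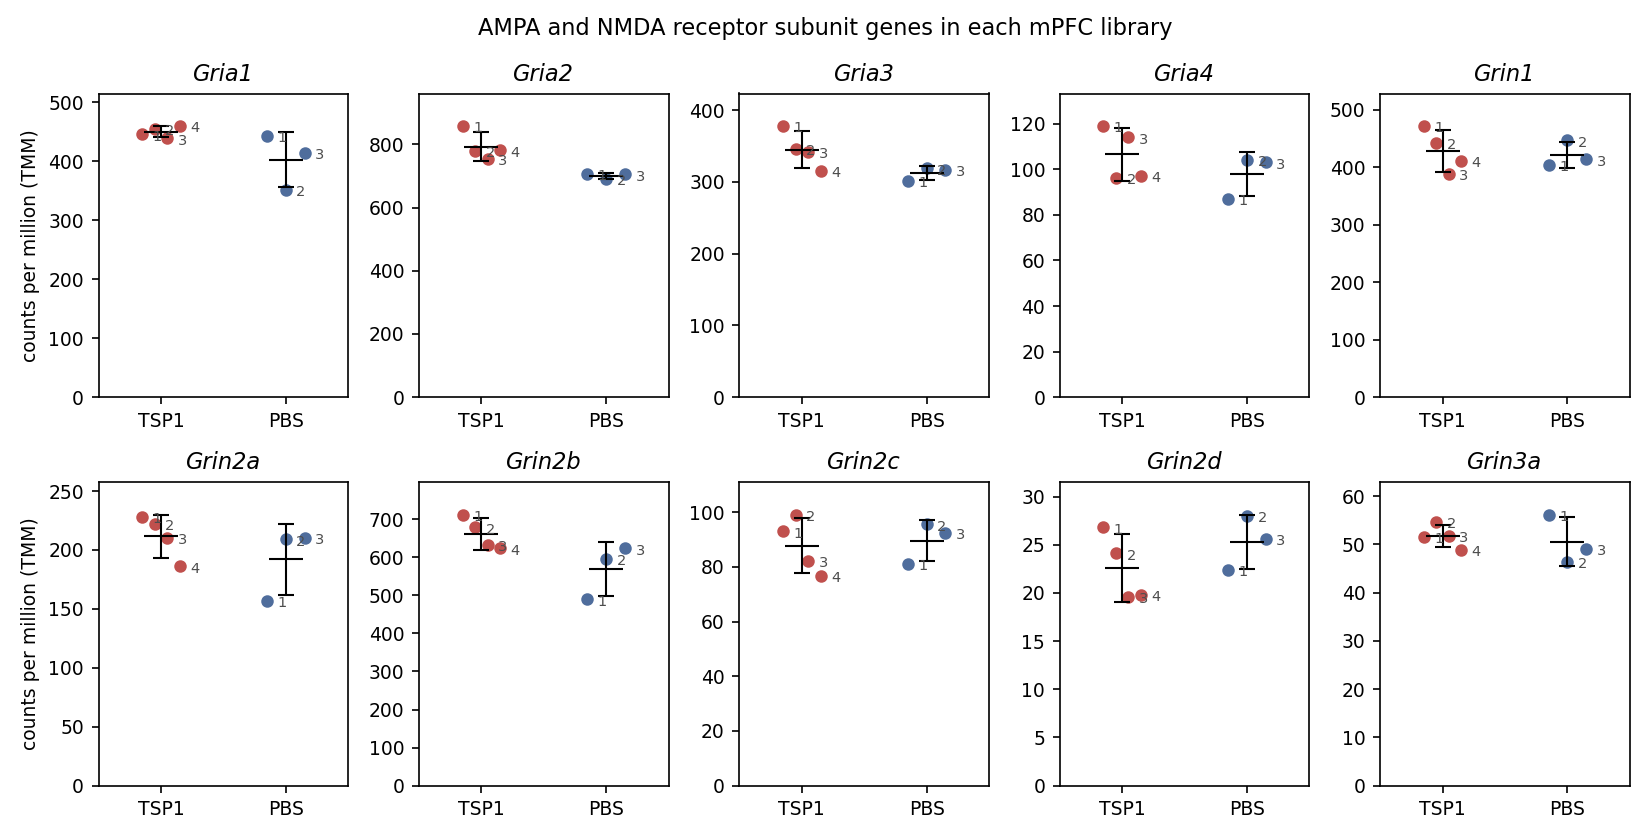
Level in CPM (vertical axes from 0, TMM scaling) of each subunit gene in the 4 TSP1 and 3 PBS libraries. Points are libraries with their replicate numbers, and bars are mean ± SD. Gria2 is higher in every TSP1 library (753 to 858 CPM) than in any PBS library (690 to 707 CPM), Grin2b nearly touches between groups, and the other 8 genes overlap.

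No subunit gene passed the threshold between TSP1 and PBS once the 17211 tested genes were allowed for. By edgeR's quasi-likelihood test 0 of 10 had a Benjamini-Hochberg FDR under 0.05 (FDR = 0.424 to 0.950), where 0% of all genes did. DESeq2 and limma-voom also called 0 of the 10, where they called 0.541% and 0% of all genes. At an unadjusted p under 0.05 there were 2 of 10, Gria2 and Grin2b, both higher with TSP1, where 9.65% of all genes passed that level. DESeq2 gave 4 at that level (5.68% of all genes) and limma-voom 3 (9.64%). The groups did not overlap at these same 2 genes, against 10.1% of all genes (4.83% with TSP1 higher). Fitted values lay above 0 for 8 of the 10 (median log2 fold change 0.13), against 51.1% of all genes (median 0.004). Because the tissue was sequenced in bulk, fewer cells of a type and less RNA per cell cannot be told apart in any of these values.

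Gria2, whose product controls calcium entry through AMPA receptors, lies on chromosome 3 from 80681450 to 80802835 (ENSMUSG00000033981.14, GRCm38, minus strand, 15548 bases of exon). It had 858, 779, 753 and 781 CPM in TSP1 replicates 1 to 4, against 707, 690 and 705 CPM in PBS replicates 1 to 3. Every TSP1 library was above every PBS library, and TSP1 replicate 1 was the highest. The log2 fold change was 0.18 (SE 0.07, unadjusted p = 0.0191, FDR = 0.424 in edgeR). It lay between 0.14 and 0.20 when each library was left out in turn.

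Gria1 encodes the subunit that is inserted into synapses during long-term potentiation (ENSMUSG00000020524.16, chromosome 11, 57011387 to 57330244, plus strand). It had 446, 455, 439 and 460 CPM with TSP1, against 443, 352 and 414 CPM with PBS. The 4 TSP1 libraries lay close together, PBS replicate 1 fell among them, and PBS replicate 2 was the lowest of all 7. The log2 fold change was 0.16 (SE 0.08, FDR = 0.533 in edgeR), and 0.08 without PBS replicate 2.

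Gria3, an X-linked gene whose product mostly assembles with that of Gria2 (ENSMUSG00000001986.16, chromosome X, 41400854 to 41678601, plus strand), had 378, 346, 342 and 315 CPM with TSP1, against 302, 319 and 317 CPM with PBS. TSP1 replicate 4 fell within the PBS range, and the other 3 TSP1 libraries were above it. The log2 fold change was 0.14 (SE 0.07, FDR = 0.544 in edgeR). Without TSP1 replicate 4, the library with high striatal markers, it was 0.19 (FDR = 0.385).

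Gria4 encodes a subunit with fast kinetics that is prominent in parvalbumin interneurons (ENSMUSG00000025892.16, chromosome 9, 4417896 to 4796234, minus strand). It had 119, 96.4, 114 and 97.0 CPM with TSP1, against 86.9, 104 and 103 CPM with PBS. TSP1 replicates 2 and 4 fell within the PBS range, and the log2 fold change was 0.12 (SE 0.09, FDR = 0.704 in edgeR). It was 0.04 without PBS replicate 1, 0.07 without TSP1 replicate 1 and 0.18 without PBS replicate 2. The interneuron markers beside it summed to 563 to 779 CPM with TSP1 and 633 to 718 CPM with PBS, with 5 of 10 fitted values above 0 and none at 0 counts. Of these 10, 4 were lower with TSP1 and 0 higher at an unadjusted p under 0.05. Over all genes, 5.44% were lower and 4.21% higher at that level. The 4 were Pvalb, Sst, Vip and Npy, with log2 fold changes of -0.38, -0.21, -0.52 and -0.25 (FDR = 0.365, 0.329, 0.235 and 0.271 in edgeR). Those of Gad1, Gad2, Slc32a1, Dlx1 and Dlx6os1 were 0.13, 0.14, 0.04, 0.11 and 0.46, and that of Lhx6 was -0.15. The part of these markers in the values of Gria4 was not tested.

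Grin1, the obligatory NMDA receptor subunit gene (ENSMUSG00000026959.13, chromosome 2, 25291181 to 25319187, minus strand), had 472, 443, 389 and 412 CPM with TSP1, against 404, 447 and 414 CPM with PBS. Both the highest and the lowest library were TSP1 libraries, and the log2 fold change was 0.02 (SE 0.08, FDR = 0.950 in edgeR). Its sign turned without TSP1 replicate 1 (-0.02) and without PBS replicate 1 (-0.01). An antisense gene, Grin1os, overlaps 13.5% of its exon bases and was itself listed with 297 to 454 counts per library, at most 6.35% of the Grin1 count. The sources used here do not say whether counting used strand, so reads of the pair cannot be told apart where they overlap.

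Grin2b encodes the glutamate-binding subunit with slow decay that carries the anchoring site for calcium/calmodulin-dependent kinase II. The gene spans chromosome 6 from 135713233 to 136173511 (ENSMUSG00000030209.14, minus strand) and has the longest exon sequence of the 10, at 24842 bases. It had 712, 678, 632 and 623 CPM with TSP1, against 489, 595 and 623 CPM with PBS. The groups were separated by the gap between TSP1 replicate 4 (622.9 CPM) and PBS replicate 3 (622.8 CPM), which is smaller than the spread within either group. PBS replicate 1 was the lowest library. The log2 fold change was 0.22 (SE 0.09, unadjusted p = 0.0241, FDR = 0.449 in edgeR), the highest of the 10, and 0.12 without PBS replicate 1.

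Grin2a encodes the glutamate-binding subunit with fast decay (ENSMUSG00000059003.12, chromosome 16, 9567898 to 9995560, minus strand). It had 228, 222, 210 and 186 CPM with TSP1, against 157, 209 and 210 CPM with PBS. As for Grin2b, PBS replicate 1 was the lowest, but here TSP1 replicate 4 fell within the PBS range. The log2 fold change was 0.14 (SE 0.10, FDR = 0.710 in edgeR). It was 0.02 without PBS replicate 1, and 0.21 without PBS replicate 2 or without PBS replicate 3. A processed pseudogene on chromosome 8, Gm7328, shares 11.6% of the 50-base windows of Grin2a, and it was listed with 1 to 9 counts per library, at most 0.273% of the Grin2a count.

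The remaining NMDA receptor genes had lower levels and fold changes of either sign. Grin2c (ENSMUSG00000020734.13, chromosome 11, 115249169 to 115267243, minus strand) had 92.9, 99.1, 82.2 and 76.7 CPM with TSP1, against 81.0, 95.5 and 92.3 CPM with PBS, and its log2 fold change was -0.03 (SE 0.09, FDR = 0.948 in edgeR). The sign of Grin2c turned after correction for exon length and GC content, with the replicate number as a block, and without TSP1 replicate 4 (0.03 each), and also without PBS replicate 2 (0.02). Beside it, 13 of 14 astrocyte markers had fitted values below 0 and none was at 0, with sums of 6510 to 7820 CPM with TSP1 and 7570 to 8600 CPM with PBS. Their part in the values of Grin2c was not tested.

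Grin2d (ENSMUSG00000002771.12, chromosome 7, 45831883 to 45878378, minus strand) had 26.8, 24.1, 19.6 and 19.8 CPM with TSP1, against 22.4, 28.0 and 25.6 CPM with PBS. TSP1 replicates 3 and 4 were below every PBS library and the other 2 were not (log2 fold change -0.17, SE 0.12, FDR = 0.697 in edgeR). The value was -0.08 without PBS replicate 2, -0.10 without TSP1 replicate 3 or 4, and -0.25 without TSP1 replicate 1 or PBS replicate 1. It was the least counted subunit gene, with 358 to 474 counts per library, so counting alone gives a relative error of up to 5.29%. An antisense gene, Gm45441, overlaps 9.66% of its exon bases and was listed with 13 to 38 counts, at most 10.4% of the Grin2d count.

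Grin3a (ENSMUSG00000039579.15, chromosome 4, 49661611 to 49845744, minus strand) had 51.6, 54.7, 51.8 and 48.9 CPM with TSP1, against 56.2, 46.4 and 49.1 CPM with PBS. All 4 TSP1 libraries lay inside the range of the PBS libraries (log2 fold change 0.03, SE 0.08, FDR = 0.936 in edgeR). Its sign turned without PBS replicate 2 (-0.02) and after correction for exon length and GC content (-0.03).

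**Figure D2:**
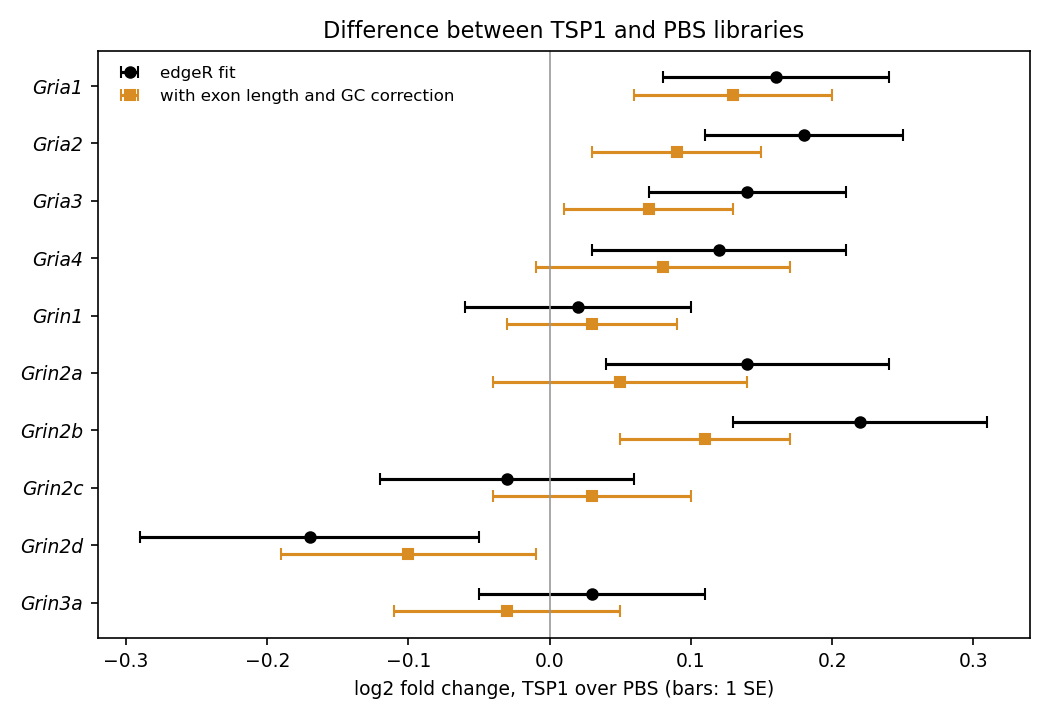
Log2 fold change of TSP1 over PBS (horizontal axis, bars 1 SE) for each subunit gene in the edgeR fit (circles) and in a fit that first removes how the counts of a library vary with exon length and GC content (squares). The correction moves Gria2 to 0.09 and Grin2b to 0.11, and every gene misses the threshold in both.

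Fold changes of all genes varied with exon length in these libraries, and most subunit genes are long. The median log2 fold change was -0.06 over 2110 genes with 1 to 2 kb of exon, 0.01 over 5955 genes with 4 to 8 kb, 0.06 over 549 genes with 12 to 16 kb and 0.08 over 321 genes with more than 16 kb. Against genes in the same length class, Gria2 and Grin2b lay above the upper quartile (0.14 and 0.15), as did Gria1, Gria3 and Gria4 in theirs. Grin1, Grin2a, Grin2c and Grin3a lay between the quartiles and Grin2d below the lower one. After correction for exon length and GC content within every library, the log2 fold changes of Gria2 and Grin2b were 0.09 and 0.11 (FDR = 0.721 and 0.645 in edgeR), and 0 of 10 subunit genes had an unadjusted p under 0.05. The corrected values of Gria1, Gria3, Gria4 and Grin2a were 0.13, 0.07, 0.08 and 0.05, and that of Grin2d was -0.10.

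**Figure D3:**
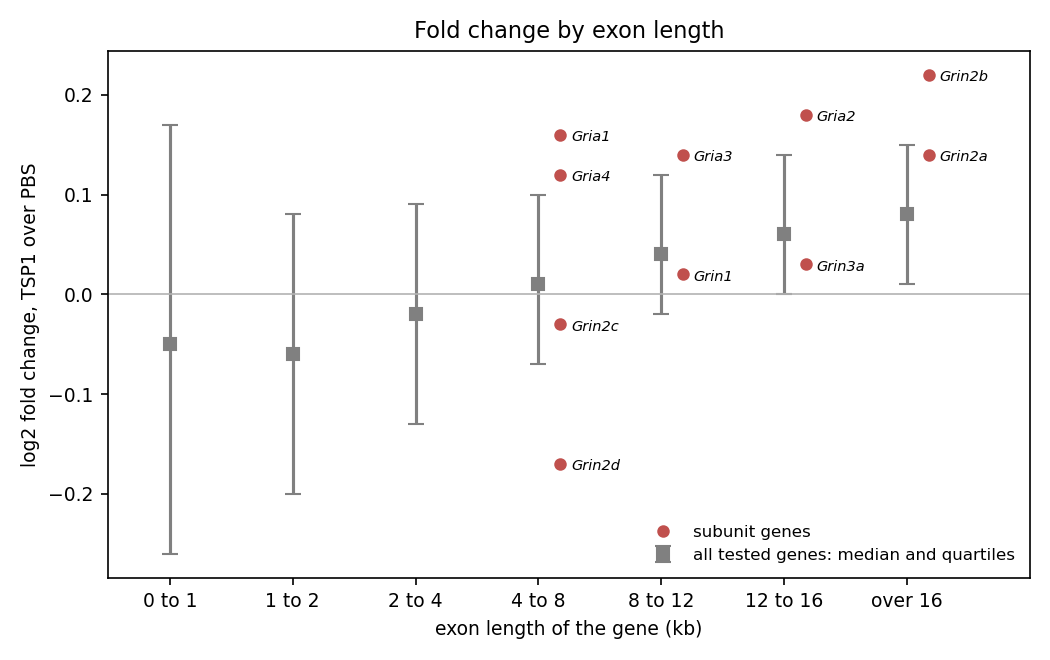
Log2 fold change of TSP1 over PBS (vertical axis) for all tested genes grouped by exon length in kb (squares are medians, bars reach the quartiles) with the subunit genes beside their length class (circles). The medians run from -0.06 for genes of 1 to 2 kb to 0.08 for genes over 16 kb, and Gria2 and Grin2b lie above the quartile bars of their classes, as do Gria1, Gria3 and Gria4.

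Ratios between subunits within a library do not depend on library size, and 10 of them were compared with an exact permutation test (two-sided, 35 arrangements of 7 libraries). No ratio passed after adjustment over the 10, and a single ratio could not have passed. The lowest possible exact permutation p, 0.0286, becomes 0.286 when a single ratio reaches it. The ratio of Grin2b to Grin1 was 0.590, 0.598, 0.635 and 0.591 in TSP1 replicates 1 to 4, against 0.473, 0.520 and 0.587 in PBS replicates 1 to 3. The groups did not overlap, although PBS replicate 3 came close to the TSP1 libraries. The difference was 0.20 on the log2 scale (exact permutation p = 0.0286, which is the lowest value possible here, and 0.286 adjusted over the 10 ratios).

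The ratio of Gria2 to Grin1, which sets the calcium-limiting AMPA subunit against the common NMDA subunit, was 1.13, 1.10, 1.21 and 1.18 with TSP1, against 1.09, 0.963 and 1.06 with PBS. The groups again did not overlap, and PBS replicate 2 was the only library with more Grin1 than Gria2 per kb of merged exon. With the longest transcript as length, Grin1 averaged 99.5 and Gria2 72.6 CPM per kb over all libraries. The difference was 0.15 on the log2 scale (exact permutation p = 0.0571, adjusted p = 0.286). Grin2b and Gria2 have more exon sequence than Grin1 (24842, 15548 and 9700 bases). Ratios were not recomputed with the correction for exon length and GC content. That correction gave log2 fold changes of 0.11 for Grin2b, 0.09 for Gria2 and 0.03 for Grin1. The summed level of the 4 AMPA receptor genes was 186, 176, 174 and 174 CPM per kb with TSP1, against 163, 151 and 162 CPM per kb with PBS. These sums did not overlap and were not tested. For scale, 4.83% of all genes did not overlap and were higher with TSP1. The sums were not recomputed with the length and GC correction, which gave Gria1, Gria3 and Gria4 log2 fold changes of 0.13, 0.07 and 0.08. The summed NMDA level was 117, 113, 101 and 100 CPM per kb with TSP1, against 94.1, 109 and 106 CPM per kb with PBS, where the groups overlapped. The summed AMPA level over the summed NMDA level was 1.65 ± 0.0910 with TSP1 (SD, n = 4) and 1.56 ± 0.170 with PBS (SD, n = 3), a difference smaller than the SD with PBS.

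Within the Grin2 genes, the ratio of Grin2a to Grin2b, which increases as cortex matures, was 0.443, 0.453, 0.461 and 0.415 with TSP1, against 0.446, 0.486 and 0.466 with PBS. TSP1 replicates 2 and 3 fell within the PBS range, and the difference was -0.07 on the log2 scale (exact permutation p = 0.229, adjusted p = 0.571). The ratio of Grin2d to Grin1 was 0.0829, 0.0792, 0.0736 and 0.0702 with TSP1, against 0.0809, 0.0914 and 0.0899 with PBS. Only TSP1 replicate 1 overlapped the PBS libraries, and the difference was -0.19 (exact permutation p = 0.114, adjusted p = 0.381).

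Within the AMPA receptor genes, the ratio of Gria1 to Gria2 was 1.34, 1.5, 1.5 and 1.52 with TSP1, against 1.61, 1.31 and 1.51 with PBS, a log2 difference of -0.01 (exact permutation p = 0.943). All TSP1 libraries lay inside the PBS range. The log2 differences of Gria3 and Gria4 over Gria2 were -0.04 and -0.05 (exact permutation p = 0.6 and 0.743), and those of Grin2a, Grin2c and Grin3a over Grin1 were 0.13, -0.06 and 0.01 (exact permutation p = 0.343, 0.486 and 0.886). With 1 library left out the test cannot give a p below 0.0667, so it could not pass there. Without PBS replicate 1 the Grin2b to Grin1 difference was 0.13 in place of 0.20, and that of Grin2a to Grin1 was 0.02 in place of 0.13. The Grin2a to Grin1 difference was 0.21 without PBS replicate 3, and that of Gria2 to Grin1 was 0.10 without PBS replicate 2. The Grin2a to Grin2b difference was -0.11 without PBS replicate 1, and -0.04 without TSP1 replicate 4 or PBS replicate 2.

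**Figure D4:**
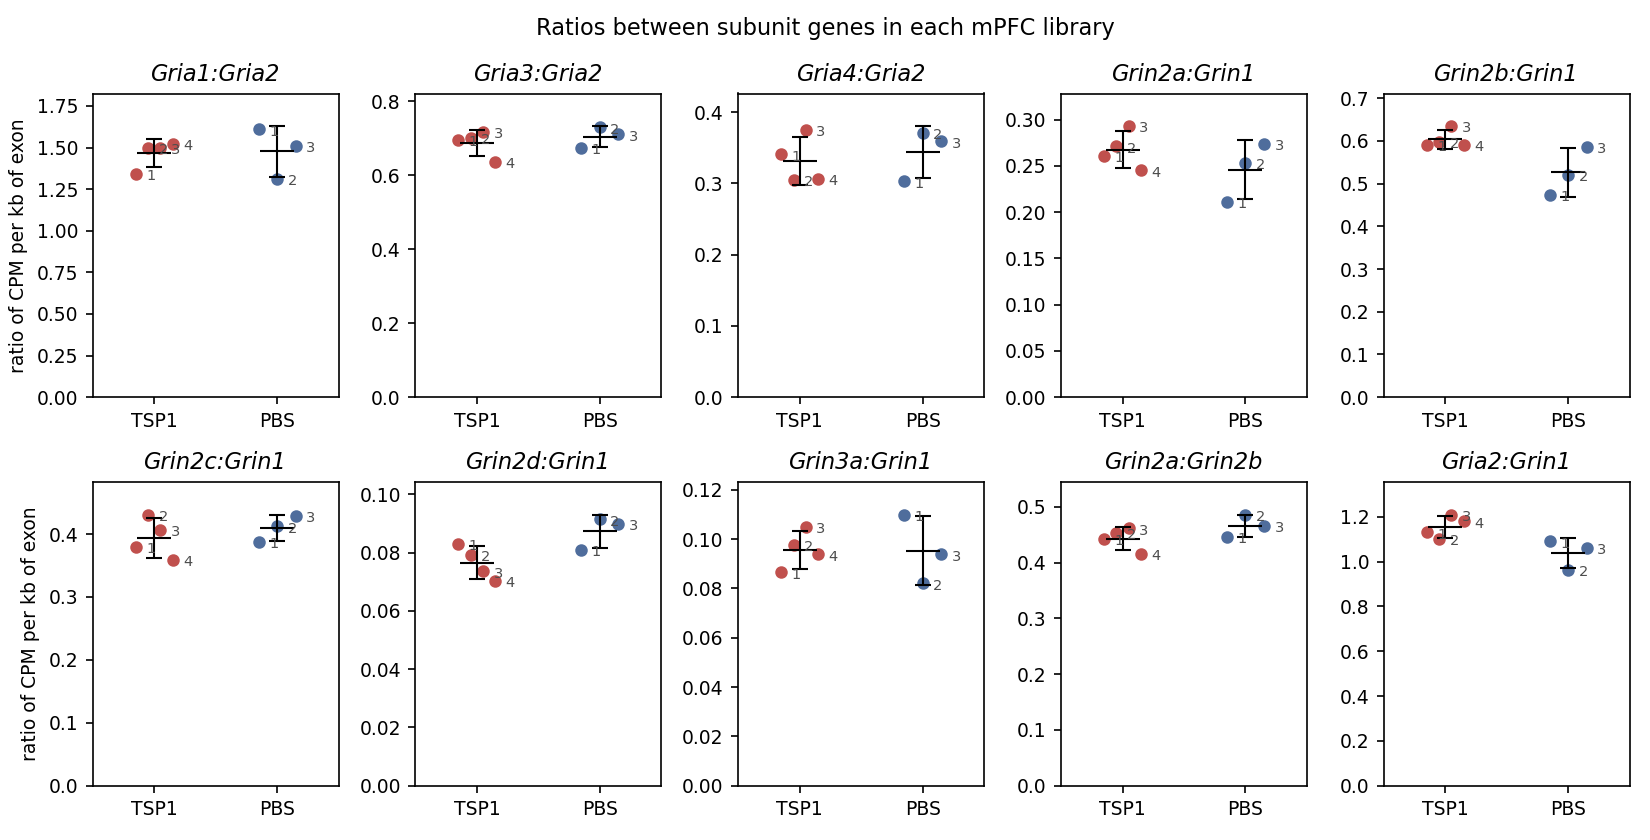
Ratios of CPM per kb of exon between subunit genes (vertical axes from 0) in the 4 TSP1 and 3 PBS libraries. Points are libraries with their replicate numbers, and bars are mean ± SD. Grin2b to Grin1 (0.590 to 0.635 with TSP1, 0.473 to 0.587 with PBS) and Gria2 to Grin1 (1.10 to 1.21 with TSP1, 0.963 to 1.09 with PBS) do not overlap between the groups.

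Of 79 tested genes that act on these receptors, edgeR's quasi-likelihood test, DESeq2 and limma-voom each called 0. At an unadjusted p under 0.05 edgeR had 7 of the 79, against 9.65% of all genes, limma-voom had 8 of the 79, against 9.64%, and DESeq2 had 8 of the 81 it fitted, against 5.68%. Of 13 AMPA receptor auxiliary subunits, 7 had fitted values above 0 and the median log2 fold change was 0.00, against 0.004 for all genes. Cacng2, which encodes stargazin, a transmembrane protein that brings AMPA receptors to the synapse, had 72.0 ± 5.14 CPM with TSP1 and 84.0 ± 10.2 with PBS, and its log2 fold change was -0.22 (SE 0.08, unadjusted p = 0.0204, FDR = 0.433 in edgeR). PBS replicate 1 (72.3 CPM) lay within the TSP1 range of 67.0 to 76.9 CPM. In the other direction, Cacng5 had the smallest p of its list, with 13.2 ± 5.87 CPM with TSP1 and 9.12 ± 2.89 with PBS, and its log2 fold change was 0.54 (SE 0.46, FDR = 0.769 in edgeR), or 0.31 without TSP1 replicate 4 and 0.33 without PBS replicate 2.

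Of 22 genes for receptor assembly and transport, 10 had fitted values above 0 (median -0.01). Myo5b, a motor of recycling endosomes that carry AMPA receptors into spines, had 43.8 ± 2.03 CPM with TSP1 and 37.3 ± 6.90 with PBS, and its log2 fold change was 0.23 (SE 0.11, FDR = 0.516 in edgeR), or 0.09 without PBS replicate 2 and 0.35 without PBS replicate 1. Kif5b, a kinesin motor gene, had 283, 297, 303 and 302 CPM with TSP1, against 315, 338 and 335 CPM with PBS. These groups did not overlap, and the log2 fold change was -0.15 (SE 0.06, FDR = 0.456 in edgeR). Among the 22 genes the groups did not overlap at 1 that was higher and 2 that were lower. Over all genes these shares were 4.83% and 5.26%. Of 10 scaffold genes, 4 had fitted values above 0 (median -0.02), and those of smallest p in each direction were Lin7a (0.14, SE 0.07) and Lin7c (-0.13, SE 0.07, or -0.07 without PBS replicate 3).

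Of the 3 RNA editing genes, Adarb1, which encodes the enzyme for the Gria2 pore site, had 218 ± 9.36 CPM with TSP1 and 219 ± 19.6 with PBS. Adar had the smallest p of the list, with a log2 fold change of 0.10 (SE 0.07, FDR = 0.675 in edgeR), or 0.05 without TSP1 replicate 1. Of 17 kinase and phosphatase genes, 12 had fitted values above 0 (median 0.02). Camk2a, the kinase subunit that binds the Grin2b product, had 4220 ± 763 CPM with TSP1 and 4890 ± 268 with PBS, and its log2 fold change was -0.21 (SE 0.13, FDR = 0.645 in edgeR). TSP1 replicate 4, the library with high striatal markers, was the lowest of the 7 for Camk2a (3150 CPM), and without it the log2 fold change was -0.09. Prkca had a log2 fold change of 0.15 (SE 0.09), or 0.08 without TSP1 replicate 2.

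The list of genes that make, transport or break down the co-agonists glycine and D-serine mixes supply with removal. At an unadjusted p under 0.05 it held 3 genes higher and 1 lower among 14 tested of 16. Over all genes, 4.21% were higher and 5.44% lower at that level. The median of the 14 was 0.00, and none passed the adjustment. Slc1a5, a neutral amino acid transporter gene, had 3.83, 4.09, 3.57 and 3.92 CPM with TSP1, against 2.15, 2.78 and 2.87 CPM with PBS, and its log2 fold change was 0.57 (SE 0.19, FDR = 0.352 in edgeR). Slc6a9, which encodes the glycine transporter GlyT1, had 27.4, 29.1, 27.0 and 31.7 CPM with TSP1, against 25.4, 25.3 and 23.0 CPM with PBS, and its log2 fold change was 0.23 (SE 0.08, FDR = 0.401 in edgeR). Srr, which encodes serine racemase, the enzyme that makes D-serine, had 59.2, 60.1, 61.5 and 61.3 CPM with TSP1, against 52.2, 57.4 and 53.2 CPM with PBS, and its log2 fold change was 0.16 (SE 0.06, FDR = 0.449 in edgeR).

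Of the 14 tested genes, the groups did not overlap at these 3, which were higher, against 4.83% of all genes. They also did not overlap at Psph, an enzyme gene of serine synthesis, which was lower (log2 fold change -0.19, SE 0.10, FDR = 0.567 in edgeR), against 5.26% of all genes. Slc6a9, Srr and Psph were named after their values were seen. Psat1, another enzyme gene of serine synthesis, which astrocytes express, had 112 ± 11.8 CPM with TSP1 and 129 ± 5.22 with PBS, and its log2 fold change was -0.20 (SE 0.08, FDR = 0.451 in edgeR), or -0.13 without TSP1 replicate 1. The astrocyte markers, 13 of 14 below 0, had the sign of Psat1 and the opposite sign to Slc6a9, and their part in either was not tested.

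**Figure D5:**
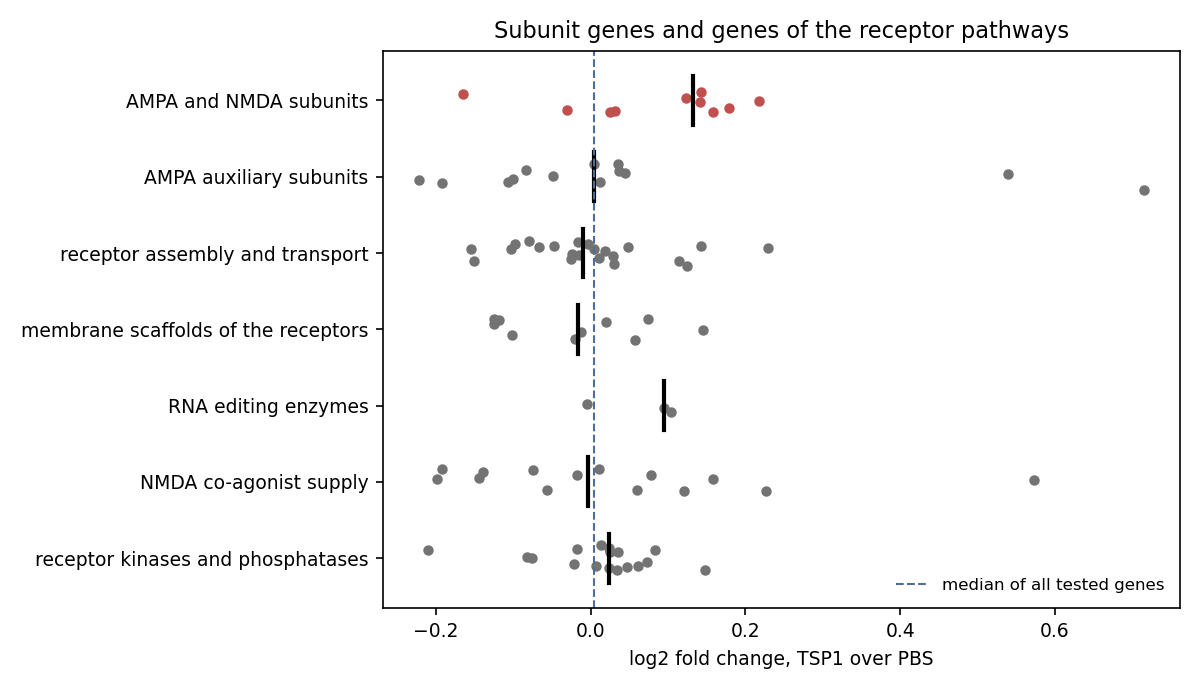
Log2 fold change of TSP1 over PBS (horizontal axis) for the subunit genes (top row) and for tested genes of 6 lists of receptor-related genes. Each point is a gene, black bars are list medians and the dashed line is the median of all tested genes (0.004). The subunit median is 0.13 and that of the 3 RNA editing genes is 0.09. The medians of the AMPA auxiliary, transport, scaffold, co-agonist and kinase lists lie between -0.02 and 0.02.

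Of 103 tested cell type markers edgeR and limma-voom called 0. At an unadjusted p under 0.05 edgeR had 30 of the 103, against 9.65% of all genes. DESeq2 called 9 of the 110 markers it fitted, against 87 genes over the whole table (0.541%). These 9 were the microglia genes C1qa and Ctss, the endothelial genes Cldn5, Ly6a and Ly6c1, the astrocyte genes Clu, Ntsr2 and S100b, and the interneuron gene Vip, all with edgeR log2 fold changes below 0. Of 8 pan-neuronal markers 5 had fitted values above 0 (median 0.04), and they summed to 6020 to 6270 CPM with TSP1 and 5630 to 6140 CPM with PBS, with PBS replicate 1 the lowest. Of 10 excitatory neuron markers 2 lay above 0 (median -0.09). All 12 microglia markers lay below 0 (median -0.34), summing to 499 to 634 CPM with TSP1 and 651 to 764 CPM with PBS. All 10 endothelial markers lay below 0 (median -0.16), summing to 247 to 318 CPM with TSP1 and 313 to 374 CPM with PBS. Of 9 oligodendrocyte precursor markers 8 lay below 0 (median -0.17), and they summed to 382 to 456 CPM with TSP1 and 442 to 490 CPM with PBS. Lower at an unadjusted p under 0.05 in edgeR were 8 of 12 microglia and 4 of 10 endothelial markers. So were 6 of 14 astrocyte, 4 of 10 interneuron and 4 of 9 precursor markers, against 5.44% of all genes. In each of these lists 0 were higher at that level, against 4.21% of all genes. None of these markers was at 0 in all libraries, and their part in the subunit values was not tested.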

How the data were processed

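Libraries were made from 1.3 µg of total RNA with a SMARTer mRNA kit, per the labels' protocols. The deposited table holds unnormalized counts for each gene, since its values are whole and the totals differ. The submitters' processing notes name the builds GRCm38 and mm10. The sources used here name no aligner, counter or annotation. Columns were matched by the number that opens each sample's description (1 to 4 for TSP1, and 8, 11 and 12 for PBS), so library order and treatment cannot be told apart. Identifiers were matched to GENCODE M21 (25375 of 25467).

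The test was edgeR 4.0.16 in R 4.3.3 (filterByExpr, TMM, robust quasi-likelihood fit of group, FDR under 0.05 over all genes tested), checked on simulated counts. Ratios used CPM per kb of merged exon and exact permutation tests (SciPy 1.17.1). Alternatives were RLE factors, DESeq2 1.42.0, limma-voom 3.58.1, other low-count filters, a length and GC correction (natural splines, 4 degrees of freedom each), a block for the replicate number and the omission of single libraries. DESeq2 gave no adjusted p for 9398 genes. Sequence shared with other genes was counted in 50-base windows. The pore-site sequence of a further gene is not reported here.

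The genes named were all subunits and, in each pathway list, the gene of smallest p in each direction. Slc6a9, Srr, Psph, the interneuron markers and the markers DESeq2 called were named outside that rule, after their values were seen. Members and lists were chosen with earlier results of these data known. The mice were 7 separate animals, with no word on litters. The edgeR p-values set the difference between groups against the spread between animals within groups. Permutation p-values set it against the other arrangements of the libraries.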

Additional observations from a re-analysis of the deposited data

Results flagged for a closer look

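The ratio of Gria1 to Gria2 in TSP1 replicate 1 was 1.34, while the other TSP1 libraries lay at 1.5 to 1.52. Its gap to the nearest of them was 0.905 of the range of the 4 TSP1 libraries, above Dixon's 95% critical value for 4 samples. Of 30 values checked this way, 1 passed, and chance alone would mark about 1 in 20. The PBS libraries of the same ratio spanned 1.31 to 1.61. Groups of 3 were not checked.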

How the results depend on the processing

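None of the 10 subunit genes was called under any alternative or with any library left out, and 132 of 140 recomputed fold changes kept their sign. The number of genes past FDR 0.05 over the whole table was 87 with DESeq2 and 19 with no low-count filter, and ranged from 0 to 9 with single libraries left out (1 without TSP1 replicate 2, 1 without PBS replicate 1, 9 without PBS replicate 3). Subunit genes at an unadjusted p under 0.05 numbered 4 with DESeq2 and 0 after the length and GC correction, and 1 to 3 with single libraries left out (1 each when TSP1 replicate 2, or else replicate 2 or 3 of PBS, was dropped). Signs turned for Grin2c (0.03 with the correction and 0.03 with the replicate block) and Grin3a (-0.03 with the correction). With single libraries left out, Grin1 ranged from -0.02 to 0.07, Grin2c from -0.10 to 0.03 and Grin3a from -0.02 to 0.12. So did the log2 differences of Gria1:Gria2 (-0.09 to 0.05), Gria3:Gria2 (-0.07 to 0.0010), Gria4:Gria2 (-0.14 to 0.0019) and Grin3a:Grin1 (-0.09 to 0.12). The cause was not tested.

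Labels number replicates 1 to 3 in both groups, but the animals differ and same-numbered libraries did not deviate together (correlations -0.261, -0.0331 and 0.0103). The numbers were therefore not taken as pairs, although so few libraries cannot exclude pairing. With the replicate block no subunit gene was called, 3 had an unadjusted p under 0.05, and the Gria3:Gria2 difference was 0.0010. Over 3 pairs an exact test cannot go below 0.25.

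With the longest transcript as length, the mean shares over the 7 libraries were 33.3, 31.2, 27.4 and 8.13% for Gria1 to Gria4 in place of 42.0, 28.6, 19.8 and 9.64%. Grin1, Grin2a, Grin2b, Grin2c and Grin2d took 59.1, 8.22, 15.3, 10.7 and 2.59% of the NMDA level in place of 41.6, 10.7, 23.7, 16.6 and 3.38%. Shares between genes therefore depend on the length used as divisor, while the difference of a ratio between groups does not. Dividing by length does not remove the trend of fold changes with exon length.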

Other observations

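Across the 7 libraries the subunit genes fell into patterns that crossed receptor types. Grin2a and Grin2b followed each other most closely of all 45 pairs (Pearson r of log2 CPM 0.920). Gria3 followed Grin2b (0.840) and Gria2 (0.819), and Grin2c followed Grin2d (0.826). Gria1 followed Grin3a (0.675) and ran against Grin2d (-0.615). These are descriptions over 7 points that share 2 groups.

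Of 7962 other genes with at least 20 CPM on average, those most like Gria2 were Zfp334, Mfsd4a and Igf2r (r = 0.997, 0.985 and 0.982), those most like Grin2b were Fzd3, Lmbrd2 and Ttc3 (0.987, 0.984 and 0.979), and those most like Gria1 were Myo5b, Lmo7 and Caln1 (0.996, 0.993 and 0.990). With 7 libraries and 7962 candidates, values this high say little about any pair.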
